A study of Caenorhabditis elegans with 32 samples.

Results

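The nicotinamide riboside (NR) effect shared by 4 Caenorhabditis elegans strains was examined by setting 16 arrays of NR-treated worms against 16 arrays of vehicle-treated worms, with strain as an additive term. Of 25497 genes measured, 682 (2.67%) changed with NR, 383 up-regulated (1.5%) and 299 down-regulated (1.17%), and 644 of these changed in the same direction in all 4 strains. Those 644 genes (2.53% of all genes), 366 up-regulated (1.44%) and 278 down-regulated (1.09%), are described here. Of the gene lists examined, that of sperm proteins held the most up-regulated genes, and lysozymes (6 of 16) and cuticle collagens (49 of 176) were among the lists with the most down-regulated genes.

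Beside the wild type N2, worms with the allele csb-1(ok2335), worms with csa-1(tm4539) and worms with both, csa-1(tm4539);csb-1(ok2335), were treated, abbreviated below as csb-1, csa-1 and csa-1;csb-1. The mutants carry deletion alleles of the worm counterparts of the genes mutated in Cockayne syndrome, each outcrossed to N2. Each strain was kept at 25 °C on seeded plates with 500 µM NR or with water as vehicle from the L4 stage. By the paper's general methods, worms were also given fluorodeoxyuridine (FUDR) from late L4 to stop egg-laying, except where stated. The methods for the worm arrays state no exception. The part of FUDR in the sperm, oocyte, germline and yolk results was not tested. RNA was taken from whole worms at day 7 of adulthood, so that all 32 samples were aged adults. The vehicle worms of 3 strains carried a repair defect too. Each of the 8 groups has 4 arrays, one sample per array.

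NR is a form of vitamin B3 that the NR kinase turns into nicotinamide mononucleotide, from which NAD+ is made. NAD+ carries electrons in glycolysis, the TCA cycle and the respiratory chain, and it is consumed by sirtuins and by poly(ADP-ribose) polymerases. The loss of the CSA or CSB protein impairs the repair of lesions that stall RNA polymerase II, and NAD+ precursors have been given to animal models of this defect to restore NAD+.

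Levels are given on a log2 scale on which 0 is the mean spot of an array, and a change is the NR level minus the vehicle level, with its standard error (SE) from limma's additive fit over 32 arrays. A gene counts as called up- or down-regulated when its Benjamini-Hochberg adjusted p was at most 0.05, its change was at least 0.54 in size (1.45-fold) and its mean level was above 0. The adjusted p alone was passed by 3101 genes (12.2%). In whole worms, fewer cells of a type and less RNA per cell cannot be told apart. The labels do not say whether the 4 samples of a group came from separate cultures, so the p-values measure the spread between these samples.

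The 75th percentile of the spot intensities ran from 1338 to 3883 over NR arrays and from 565.1 to 3231 over vehicle arrays, and the share of spots well above background ran from 65.5% to 78.5% and from 46.9% to 78.3%. The lowest of these shares were on N2 vehicle replicate 1 and csb-1 vehicle replicate 4 (46.9% and 53.1%). Each group lay on a slide of its own and the 4 vehicle slides were scanned before the 4 NR slides, so treatment and order of scanning cannot be told apart. With slide as a random block, 622 genes were called. Among the probes of csb-1, the one that separated the strains read between -1.24 and 0.23 on N2 and csa-1 arrays and between -5.24 and -2.07 on arrays of strains with the csb-1 mutation, with 1 exception. The library labelled csa-1 NR replicate 4 read -4.56, against at least -0.20 in its 3 replicates, and its csa-1 level of 0.79 lay above that of every other array. Without this library 635 genes were called and 587 had the same direction in all 4 strains, 574 of them among the 644. The change fitted over all strains kept its direction for all 644 genes.

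The csa-1 probe put 3 more labels in doubt. It read between -2.36 and -1.03 on csa-1;csb-1 arrays, between -1.23 and -0.96 on csa-1 NR replicates 1 to 3, between -0.60 and 0.73 on csb-1 arrays and between -0.75 and -0.01 on N2 arrays other than the library labelled N2 vehicle replicate 3, which read -1.65. The libraries labelled csa-1 vehicle replicates 3 and 4 read -0.04 and -0.51, within the N2 range, and csa-1 vehicle replicates 1 and 2 read -1.35 and -2.34. The library labelled N2 vehicle replicate 3 was also close to csa-1 vehicle replicates 1 and 2 in 3 genes described below. It read 4.58 for ilys-3, against 4.52 and 4.78 on those 2 and 1.69 to 2.21 on the other N2 vehicle arrays, 3.04 for dhs-26 against 3.05 and 3.02 (other N2 vehicle arrays 0.41 to 1.26) and 0.81 for msd-4 against 0.94 and 0.64 (others 3.30 to 3.37). All 3 are labelled vehicle, so their strain is in doubt and these probes do not bear on treatment. Without the 4 libraries in doubt, an alternative chosen after seeing the data, 666 genes were called. Of these, 565 had the same direction in all 4 strains, 496 of them among the 644. The change fitted over all strains kept its direction for all 644, which does not cover each strain taken singly. Values for N2 and csa-1 taken singly rest on these labels.

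Markers of intestine (9 genes), neurons (15), germline (25), oocytes and eggshell (41) and pharyngeal muscle (7) had mean levels above 0 on all arrays as lists. They held no called gene, with 3, 1, 2, 4 and 1 genes at an unadjusted limma p below 0.05. The adjusted p alone was passed by 1 intestine gene upwards and 2 downwards, and by 1 germline gene upwards.

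The gene with the largest decrease was sysm-1 (T24B8.5), which encodes a small secreted ShK-domain peptide widely used as a reporter of the p38 PMK-1 immune pathway. Its level ran from 1.83 to 4.05 over NR arrays (median 2.64) and from 4.66 to 7.38 over vehicle arrays (median 5.62). The groups did not overlap: each NR array lay below each vehicle array. sysm-1 fell by 2.86 ± 0.21, or 7.25-fold (limma adjusted p = 5.7e-11), with decreases of 2.81 in N2, 2.20 in csa-1, 3.72 in csb-1 and 2.70 in csa-1;csb-1. Its 4 other probes on the array gave changes from -2.96 to -2.84.

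Invertebrate-type lysozymes, secreted enzymes that cleave the bacterial cell wall, were among the genes that fell most. The level of ilys-5 ran from 1.59 to 3.85 over NR arrays (median 2.11) and from 3.77 to 6.21 over vehicle arrays (median 5.09). NR arrays of ilys-5 lay below all vehicle arrays in 15 of 16 cases and the groups were separate within each strain, with a decrease of 2.52 ± 0.13, or 5.75-fold (limma adjusted p = 1.0e-14). For ilys-2 the NR arrays ran from -1.06 to 0.66 (median -0.26) and the vehicle arrays from 1.32 to 3.34 (median 1.87), and ilys-3 ran from -1.04 to 1.38 (median -0.01) against 1.52 to 4.78 (median 1.94). Neither gene showed any overlap between NR and vehicle. The decreases were 2.41 ± 0.16 for ilys-2 and 2.34 ± 0.30 for ilys-3 (limma adjusted p = 8.5e-12 and 1.2e-06), and both were seen in each strain, from 2.05 to 3.07 for ilys-2 and from 1.42 to 2.92 for ilys-3.

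**Figure D1:**
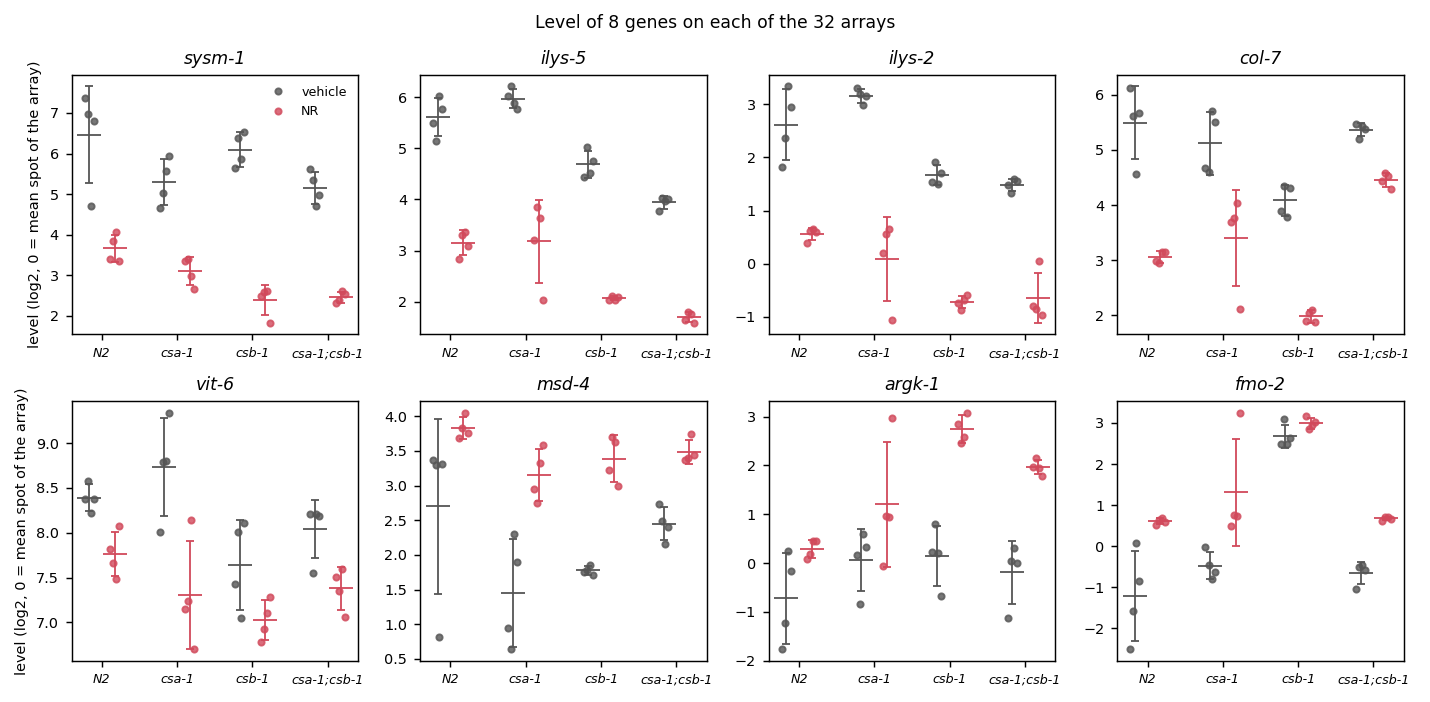
Level of 8 genes (vertical axes, log2, 0 = mean spot of the array) on each of the 32 arrays by strain, with vehicle arrays in grey, NR arrays in red and the mean ± SD of each 4 arrays. sysm-1, ilys-5, ilys-2, col-7 and vit-6 lie lower with NR, msd-4 and argk-1 lie higher, and fmo-2 is already at 2.48 or above in csb-1 vehicle worms. The library labelled csa-1 NR replicate 4 is the NR point at 2.97 for argk-1 and 3.25 for fmo-2 in the csa-1 columns.

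Over the whole lysozyme list, 6 of 16 genes (37.5%) were called down-regulated and none up-regulated, and the list's median change was -0.62 beside -0.0003 over all genes. The other 3 called members were the protist-type lysozymes lys-7, lys-1 and lys-2, with changes of -0.76, -0.72 and -0.66. Only the 3 ilys genes were called with quantile or 75th percentile scaling of the arrays. The list's mean level per array ran from 1.5 to 2.55 with NR and from 2.24 to 3.37 with vehicle, and NR and vehicle arrays did not overlap within any strain.

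Further genes known from immune and stress responses fell with NR. dod-3, named for its place downstream of the insulin-regulated factor DAF-16, ran from 0.22 to 2.90 on NR arrays (median 0.92) and from 3.06 to 3.98 on vehicle arrays (median 3.48), with no overlap between treatments. Its decrease was 1.97 ± 0.22 (limma adjusted p = 1.4e-07), of 0.92 in N2, 1.27 in csa-1, 3.06 in csb-1 and 2.62 in csa-1;csb-1, and these sizes differed between strains (interaction adjusted p = 0.011). dod-24 fell by 0.94 ± 0.13 and dod-6 by 0.74 ± 0.15, the other called members of a list of 15 metallothionein and dod genes, of which 3 were called down-regulated and none up-regulated. irg-4, a gene induced by pathogens, fell by 1.20 ± 0.19, and the thaumatin-like genes thn-2 and thn-1 fell by 0.92 ± 0.12 and 0.78 ± 0.11 (limma adjusted p = 1.9e-05, 1.4e-06 and 2.9e-06).

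C-type lectins, carbohydrate-binding proteins that the intestine secretes, had 13 of 241 members called down-regulated (5.39%, beside 1.17% of all genes) and 3 up-regulated (1.24%, beside 1.5%). By the full rule the down-regulated number ran from 4 with slide means to 18 with quantile normalization, and was 8 without the 4 libraries in doubt. With the adjusted p alone 33 passed downwards and 23 upwards. clec-13 ran from -4.08 to 1.36 over NR arrays (median -1.60) and from 0.38 to 2.11 over vehicle arrays (median 1.21). Its probe was well above background on all 16 vehicle arrays but on 11 of 16 NR arrays, and on none of the 4 csb-1 NR arrays, where clec-13 was at least 12.1-fold lower than in csb-1 vehicle worms. The decrease was 0.31 in N2, 2.31 in csa-1 and 2.91 in csa-1;csb-1, and the change differed between strains (interaction adjusted p = 0.012). The library labelled csa-1 NR replicate 4 read -3.42 for clec-13, against 0.18 to 0.57 in its replicates. The mean level of clec-13 was 0.03, close to the limit, and the gene was called in 31 of 54 settings. clec-41 fell by 0.97 ± 0.14, whereas clec-60 rose by 1.09 ± 0.20 (limma adjusted p = 5.6e-06 and 2.6e-04).

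Saposin-like proteins, small pore-forming antimicrobial proteins, also divided. spp-9 rose by 1.29 ± 0.17 and spp-21 by 1.25 ± 0.18 (limma adjusted p = 1.3e-06 and 7.0e-06), with NR arrays above vehicle arrays within each strain for both. spp-20 fell by 1.31 ± 0.20 (limma adjusted p = 1.1e-05), with a change of -0.09 in N2 and of -2.44 in csa-1;csb-1, and differed between strains (interaction adjusted p = 0.0055). In the list of 83 antimicrobial peptide genes, 3 were called up-regulated and 6 down-regulated. Of 58 pals and infection-response genes, 4 were called down-regulated and none up-regulated.

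Cuticle collagens, the structural proteins that the hypodermis secretes to build the cuticle, held the most down-regulated genes of the lists examined. Of 176 measured, 49 were called down-regulated (27.8%) and none up-regulated, and 48 of the 49 fell in all 4 strains. Changes of the called members ran from -1.79 to -0.59 with a median of -1.07. Of the 176, 73 had a mean level above 0, as a call requires, and 68 of these 73 had a negative change.

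The largest collagen decrease was that of col-7, which ran from 1.87 to 4.57 on NR arrays (median 3.15) and from 3.79 to 6.12 on vehicle arrays (median 5.29). NR and vehicle arrays of col-7 were separate within each strain but overlapped over all strains, with csa-1;csb-1 NR arrays at 4.29 to 4.57 and csb-1 vehicle arrays at 3.79 to 4.35. col-7 fell by 1.79 ± 0.18, col-80 by 1.77 ± 0.20 and col-39 by 1.68 ± 0.16 (limma adjusted p = 4.2e-08, 1.7e-07 and 2.8e-08). Their decreases in csa-1;csb-1 were 0.91, 0.76 and 0.91, and those in N2 were 2.43, 2.28 and 2.10, a difference between strains that did not pass the interaction test (adjusted p from 0.18 to 0.30). The neighbouring genes col-92, col-93 and col-94 on chromosome III were all called down-regulated.

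Sperm genes showed the opposite direction. Major sperm proteins are the cytoskeletal proteins by which the amoeboid sperm of nematodes crawls, and the list also holds the small families that accompany them. Of 58 genes, 51 were called up-regulated (87.9%) and none down-regulated, and the 51 rose in all 4 strains by 0.65 to 1.37. The list's median change was 1.02. The remaining 7 genes included ssp-37, with a change of 0.37, and nspd-8, with a change of -0.45 that did not pass the test (adjusted p = 0.15). Many of these genes are near-identical copies, so that their probes may read several members at once and single members are uncertain. The count stayed between 48 and 51 under each alternative setting that kept the full rule, and was 57 with the adjusted p alone.

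The major sperm domain gene msd-4 ran from 2.75 to 4.05 on NR arrays (median 3.51) and from 0.64 to 3.37 on vehicle arrays (median 2.03). Its NR arrays lay above all vehicle arrays in 11 of 16 cases and were separate from vehicle within each strain, and msd-4 rose by 1.37 ± 0.19 (limma adjusted p = 3.9e-06). msrp-3 ran from 0.63 to 1.41 with NR and from -1.08 to 0.61 with vehicle, without overlap, and rose by 1.31 ± 0.11 (limma adjusted p = 2.2e-09). sss-2 rose by 1.37 ± 0.17, and htas-1, a histone H2A variant of sperm, by 1.36 ± 0.16. The sperm-specific PP1 phosphatases gsp-4 and gsp-3 rose by 1.29 ± 0.15 and 1.12 ± 0.15, and spe-18 by 0.83 ± 0.10. In the separate list of 37 spermatogenesis genes, 13 had a mean level above 0. Of the 37, 20 passed the adjusted p upwards and 1 downwards, of which 14 had a mean level below 0. By the full rule 4 were called up-regulated and none down-regulated, with a median change of 0.51 that was 0.22 with 75th percentile scaling and 0.14 with normexp background correction.

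Per array, the mean level of the 58 sperm genes ran from 2.96 to 3.92 with NR and from 1.72 to 3.55 with vehicle. The NR increase of this mean was 1.33 in csb-1 and 1.08 in csa-1;csb-1, where the arrays of both treatments stood well apart. In csa-1 it was 0.81, with overlap between NR and vehicle arrays, and 1.3 without the 3 csa-1 libraries in doubt. In N2 it was 0.78, and 0.37 without the library labelled N2 vehicle replicate 3, which read 1.76 where the other N2 vehicle arrays read 3.35 to 3.55. NR arrays of N2 stayed above all N2 vehicle arrays. Of the genes of the other germ cells, none of 41 oocyte and eggshell genes and none of 25 germline genes was called (4 and 2 at an unadjusted limma p below 0.05), with median changes of -0.04 and 0.02. The adjusted p alone was passed by 1 germline gene, upwards.

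**Figure D2:**
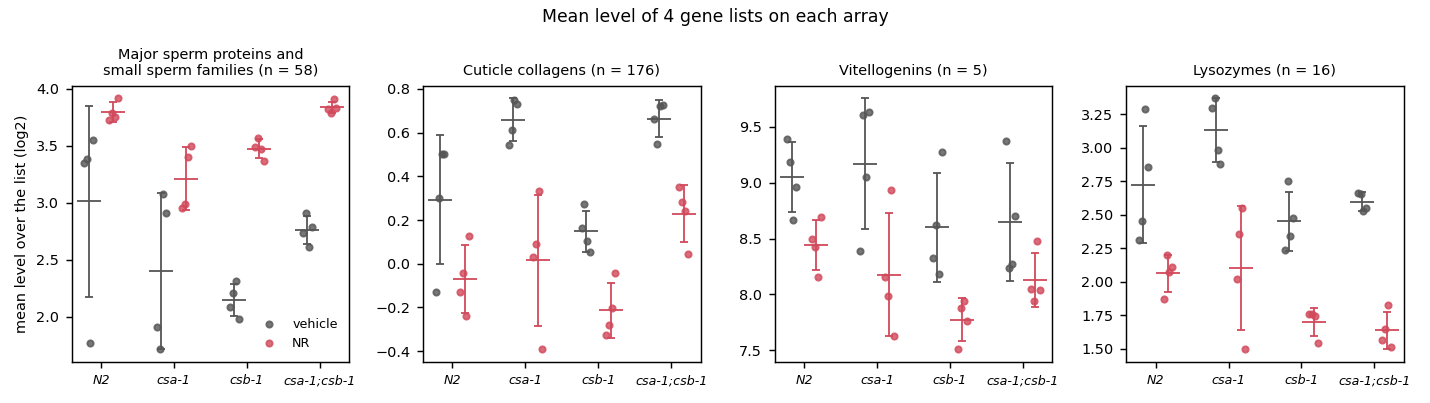
Mean level of 4 gene lists (vertical axes, log2) on each of the 32 arrays by strain, with vehicle arrays in grey, NR arrays in red and the mean ± SD of each 4 arrays. Sperm genes lie higher with NR, with the library labelled N2 vehicle replicate 3 at 1.76 below its replicates, and the means of cuticle collagens, vitellogenins and lysozymes lie lower with NR. NR and vehicle arrays overlap for vitellogenins in N2, csa-1 and csa-1;csb-1, for cuticle collagens in N2 and for sperm genes in csa-1.

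**Figure D3:**
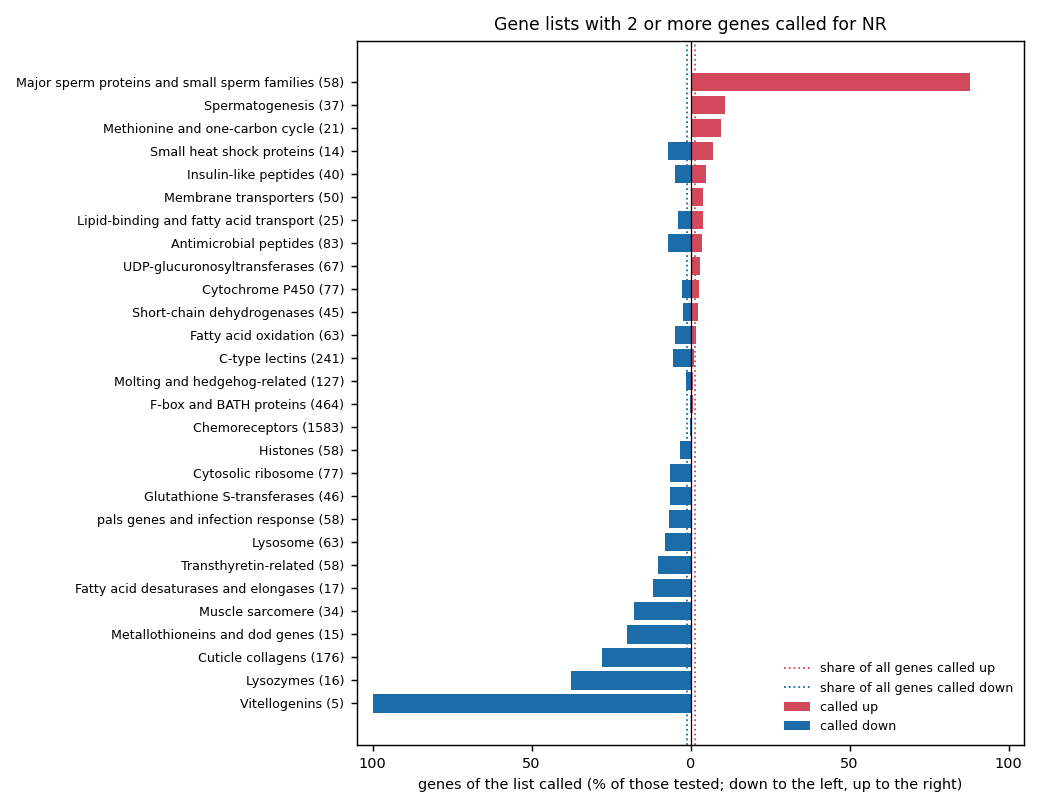
Share of each gene list called up-regulated (right, red) or down-regulated (left, blue) with NR, in percent of the list's genes measured (number in brackets), for lists with 2 or more called genes, with dotted lines at the share of all genes called up-regulated (1.5%) or down-regulated (1.17%). The sperm list reaches 87.9% to the right, and vitellogenins (100%), lysozymes (37.5%) and cuticle collagens (27.8%) extend farthest to the left.

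Vitellogenins, the yolk proteins that the intestine makes and passes to oocytes, were down-regulated as a family: vit-6, vit-4 and vit-5 fell by 0.83 each, vit-2 by 0.62 and vit-1 by 0.59. The level of vit-6 ran from 6.70 to 8.14 with NR (median 7.32) and from 7.04 to 9.34 with vehicle (median 8.21). These ranges overlapped widely, and vit-6 was separate within 1 strain. Very bright genes leaned the same way: the 327 genes with a mean level above 8 had a median change of -0.37, with 97.9% of them below 0. With 75th percentile scaling, quantile normalization or normexp, 1, 2 and 3 vitellogenins were called and the 327 bright genes had median changes of -0.10, 0.03 and 0.03. The part of array scaling in the vitellogenin result was not tested beyond these values.

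Genes of the cytosolic ribosome were also very bright, and 76 of 77 had a change below 0, with a median of -0.46. Of these, 5 were called down-regulated, led by rpl-10L at -0.65 ± 0.18 (limma adjusted p = 0.017). None was called with 75th percentile scaling, quantile normalization or normexp, and the list's median was 0.03 with quantile normalization and with normexp. Over the settings the number called ran from 0 to 20, with 1 without the library labelled csa-1 NR replicate 4 and 17 without the 4 libraries in doubt.

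Among genes of muscle, 6 of 34 sarcomere genes were called down-regulated (17.6%) and none up-regulated. tnt-2 (troponin T) fell by 0.83 ± 0.15, unc-27 (troponin I) by 0.79 ± 0.15 and ttn-1 (a titin-like protein) by 0.67 ± 0.17. The 9 other, dimmer probes of ttn-1 gave changes from -0.33 to 0.36, none past the adjusted p, and with the mean of all its probes ttn-1 had a change of -0.18 and was not called. The number called ran from 2 to 9 over the alternative settings that kept the full rule, and was 10 with the adjusted p alone. It was 2 under 75th percentile scaling, 4 without the library labelled csa-1 NR replicate 4 and 3 without the 4 libraries in doubt.

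Lysosomal hydrolases were called downwards, and genes of fat handling in both directions. asp-13, an aspartyl protease, fell by 1.57 ± 0.20, and the lipases lipl-5 and lipl-2 fell by 1.15 ± 0.11 and 0.90 ± 0.18 (limma adjusted p = 1.0e-06, 1.4e-08 and 5.5e-04). The lipl-5 arrays ran from 4.68 to 6.14 with NR (median 5.23) and from 5.46 to 7.44 with vehicle (median 6.32), with separate ranges within each strain. In all, 5 of 63 lysosome genes were called down-regulated (7.94%, beside 1.17% of all genes) and none up-regulated, and 3 were called without the 4 libraries in doubt. The elongases elo-6 and elo-5, which make branched-chain fatty acids, fell by 0.59 ± 0.10 and 0.56 ± 0.10. In the list of 63 fatty acid oxidation genes, 3 were called down-regulated (4.76%), with hacd-1 at -0.81 ± 0.09 and acox-1.3 at -0.78 ± 0.15 leading. The 1 called up-regulated (1.59%, beside 1.5% of all genes) was acs-2, an acyl-CoA synthetase induced on fasting. It rose by 0.81 ± 0.22 (limma adjusted p = 0.012). By the adjusted p alone, 13 genes of this list passed upwards and 6 downwards, and the list's median change was 0.04. far-3, which encodes a fatty acid and retinol binding protein, fell by 0.93 ± 0.17, and far-7 rose by 0.56 ± 0.09. Without the 4 libraries in doubt elo-6, elo-5 and far-7 fell short of the limit on size, with changes of -0.53, -0.50 and 0.53.

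Of the up-regulated genes, argk-1 had the largest change. It encodes an arginine kinase, an enzyme that buffers ATP through phosphoarginine. Its level ran from -0.07 to 3.08 over NR arrays (median 1.86) and from -1.76 to 0.81 over vehicle arrays (median 0.11), with 11 of 16 NR arrays above all vehicle arrays. argk-1 rose by 1.73 ± 0.25, or 3.31-fold (limma adjusted p = 8.1e-06), with increases of 1.02 in N2, 1.14 in csa-1, 2.60 in csb-1 and 2.15 in csa-1;csb-1. The csa-1 increase rests in part on the library labelled csa-1 NR replicate 4. It read 2.97, where the other csa-1 NR arrays read -0.07 to 0.95 and csa-1 vehicle arrays -0.84 to 0.59. Without this library argk-1 rose by 1.62 over all strains.

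Several leading up-regulated genes have no role that could be given here. ZK354.2 rose by 1.67 ± 0.18, C33F10.1 by 1.58 ± 0.18, F46C5.1 by 1.55 ± 0.13, C23G10.11 by 1.46 ± 0.17 and idpa-3 by 1.41 ± 0.12. F46C5.1 was the most even of them, with increases from 1.46 to 1.64 over the strains. cdh-5, a cadherin gene, rose by 1.35 ± 0.16, but its dimmer probes gave changes between 0.45 and 0.88, and it was not called when all probes of a gene were averaged. Y69E1A.1, K08C9.2 and F32H2.7 each rose by 1.32 from a mean level close to 0. F32H2.7 was called in 36 of 54 settings, with a mean level of 0.006 at the limit.

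Leading down-regulated genes outside the immune and collagen groups included dhs-26, a short-chain dehydrogenase, which fell by 2.46 ± 0.28 (limma adjusted p = 1.8e-07), and mbug-1, which fell by 2.05 ± 0.16. T12B5.15 fell by 1.86 ± 0.24 and C14C6.5 by 1.76 ± 0.12. The adjacent genes F01D5.5 and F01D5.3 on chromosome II fell by 2.10 ± 0.15 and 1.76 ± 0.18, with their neighbour F01D5.2 also called down-regulated. F01D5.5 ran from 0.92 to 2.87 with NR and from 3.56 to 4.55 with vehicle, without overlap. Both genes fell more in csb-1 and csa-1;csb-1 than in N2 and csa-1 (2.81 and 2.48 against 1.46 and 1.64 for F01D5.5), and both changes differed between strains (interaction adjusted p = 0.032 and 0.018).

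**Figure D4:**
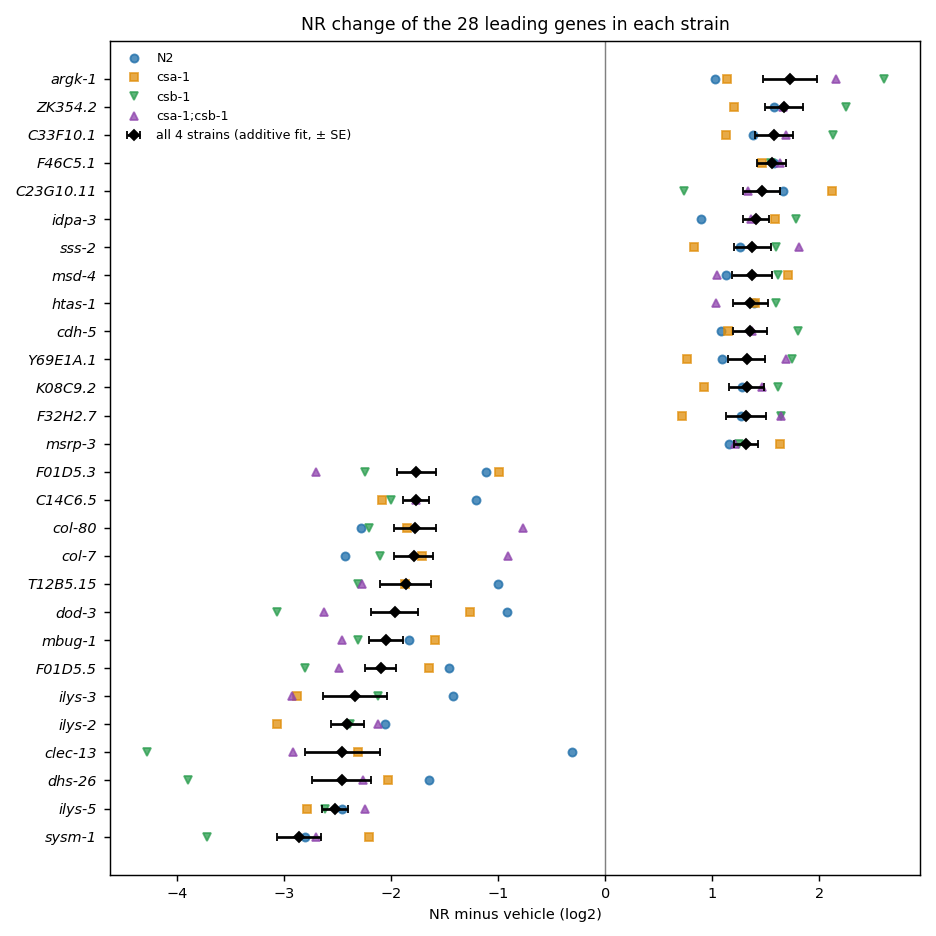
NR change (horizontal axis, NR minus vehicle, log2) of the leading genes. These are the 14 with the largest increase and the 14 with the largest decrease among shared genes matched to the RefSeq gene table. Black diamonds give the additive fit ± SE and coloured symbols each strain's difference. All strain symbols of a gene lie on 1 side of 0, with sysm-1 at -2.86 and argk-1 at 1.73 as the extremes, and clec-13 spreads from -0.31 in N2 to its csb-1 symbol, which is limited by background.

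Of the genes that make or consume NAD+, 1 was called. None of 8 NAD salvage and methylation genes was called or had an unadjusted limma p below 0.05, with changes from -0.02 to 0.19, among them the NR kinase gene nmrk-1 at -0.02 ± 0.10, the nicotinamidase gene pnc-1 at 0.14 ± 0.10 and qns-1, NAD synthetase, at -0.02 ± 0.08. The list of 9 NAD consumers also held parg-1 and parg-2, genes of poly(ADP-ribose) glycohydrolases, which do not themselves consume NAD+. None of the 9 was called and 1 had an unadjusted limma p below 0.05. This was parg-2 at -0.46, which also passed the adjusted p but not the limit on size. The sirtuin gene sir-2.1 ran from 3.93 to 4.54 with NR and from 3.99 to 4.45 with vehicle, with a change of -0.09 ± 0.06 (limma adjusted p = 0.39), and parp-1 had a change of 0.10 ± 0.15. Of 11 genes of the kynurenine route, which makes NAD+ from tryptophan, kynu-1 (kynureninase) fell by 0.56 ± 0.09 (limma adjusted p = 4.5e-05) and was called in 41 of 54 settings, with a change of -0.54 and no call without the 4 libraries in doubt. The neighbouring steps passed the adjusted p but not the limit on size, in opposite directions, with kmo-1 at 0.51 ± 0.11 and haao-1 at -0.51 ± 0.14 (limma adjusted p = 7.8e-04 and 0.016). Without the 4 libraries in doubt kmo-1 was called, with a change of 0.59.

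Of 21 genes of the methionine and one-carbon cycle, sams-5 and cth-1 were called up-regulated and none down-regulated. sams-5, an S-adenosylmethionine synthetase, ran from 2.32 to 2.71 with NR (median 2.47) and from 1.33 to 2.05 with vehicle (median 1.81). There was no overlap, and sams-5 rose by 0.75 ± 0.06 (limma adjusted p = 1.2e-09). Its dimmer probe gave a change of 0.39 ± 0.19 that did not pass (limma adjusted p = 0.19). cth-1, cystathionine gamma-lyase, rose by 0.67 ± 0.11. phyh-1, named after phytanoyl-CoA hydroxylase and picked out after its values were seen, was also without overlap and rose by 1.01.

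Genes of mitochondria showed few calls. Of 50 genes of the respiratory chain and ATP synthase, 1 was called, the cytochrome c gene cyc-2.2, which rose by 1.18 ± 0.13 (limma adjusted p = 9.0e-08). The median of this list was -0.12, and its sign turned with 75th percentile scaling, quantile normalization and normexp (0.02, 0.04 and 0.03). None of 70 mitochondrial ribosome genes, 24 TCA and glyoxylate cycle genes or 13 genes of the mitochondrial unfolded protein response was called, with 4, 5 and 3 genes at an unadjusted limma p below 0.05, and their medians lay between -0.05 and -0.01. Of these, 1 TCA and glyoxylate cycle gene passed the adjusted p upwards, at a mean level below 0.

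Enzymes of detoxification were called in small numbers. adh-1, an alcohol dehydrogenase, ran from 4.85 to 5.75 with NR (median 5.14) and from 3.51 to 5.01 with vehicle (median 4.28), and was separate within each strain, with an increase of 0.95 ± 0.10 (limma adjusted p = 5.6e-08). fmo-2, a flavin monooxygenase, rose by 1.31 ± 0.23 (limma adjusted p = 1.2e-04), by 1.82 in N2, 1.78 in csa-1, 0.32 in csb-1 and 1.32 in csa-1;csb-1. Vehicle worms of csb-1 already stood at 2.48 or above, and the csa-1 increase rests in part on the library labelled csa-1 NR replicate 4, at 3.25 against 0.48 to 0.77 in its replicates. Without this library fmo-2 rose by 1.15 over all strains. The cytochrome P450 gene cyp-35A1 rose by 0.71 ± 0.16 and cyp-35A3 fell by 0.82 ± 0.20. Of 67 UDP-glucuronosyltransferases 2 were called up-regulated (2.99%, beside 1.5% of all genes) and none down-regulated. Of 46 glutathione S-transferases 3 were called down-regulated (6.52%, beside 1.17%), gst-6, gst-24 and gst-10, and none up-regulated. With the adjusted p alone, 4 UDP-glucuronosyltransferases passed upwards and 5 downwards, and 5 glutathione S-transferases passed in each direction. The transporters pgp-1 and mrp-8 rose by 0.68 ± 0.13 and 0.63 ± 0.09, and mrp-8 had a change of 0.56 and was not called without the 4 libraries in doubt.

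Signalling peptides gave a few calls, with ins-7 of the insulin-like family up-regulated by 0.93 ± 0.21 and ins-2 down-regulated by 0.86 ± 0.15 among 2 called in each direction of 40. Small heat shock proteins had no member in the shared set: of 14 measured, 1 was called in each direction, and neither kept its direction in all 4 strains. hsp-12.3 had changes of 1.55 in N2, 1.51 in csa-1, 0.10 in csb-1 and -0.19 in csa-1;csb-1, and differed between strains (interaction adjusted p = 0.0059).

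How far the shared genes held in each strain was compared next. Over the 366 up-regulated genes the median change was 0.80 in N2, 0.79 in csa-1, 1.08 in csb-1 and 0.95 in csa-1;csb-1, and over the 278 down-regulated genes it was -0.68, -0.87, -0.82 and -0.82. Of all genes, 24.6% had 1 direction in all 4 strains, and of the 682 called genes 94.4% did, the fit and the directions resting on the same values. The largest of the 4 changes was in csb-1 for 276 of the 644 genes and in N2 for 79. Within strains, 222 genes were called in N2 (0.871% of all genes), 561 in csa-1 (2.2%), 382 in csb-1 (1.5%) and 582 in csa-1;csb-1 (2.28%). Of the 644 shared genes, 30 were called within all 4 strains taken singly and 145 within none. Without the library labelled csa-1 NR replicate 4, 397 genes were called within csa-1, and without the 4 libraries in doubt 472 were called within csa-1 and 293 within N2. The NR and vehicle arrays, 16 against 16, did not overlap for 11 of the 644 genes, beside 21 of all genes (0.0824%). Of the 644, 21 differed between strains by the interaction test, which 466 of all genes passed (1.83%). That number ran from 213 to 1271 when single arrays were left out, the 1271 being without the library labelled N2 vehicle replicate 3, and was 1151 without the 4 libraries in doubt.

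Direction was then read in a strain that had no part in choosing the genes, a comparison added after the data had been seen. For each strain in turn, genes were called from the other 3 strains, with the same direction in those 3. In N2, 602 of 630 genes so chosen changed in the chosen direction (95.6%, beside 70.6% of all genes, each set against its own direction in the other 3 strains), in csa-1 566 of 648 (87.4%, beside 53.9%), in csb-1 588 of 630 (93.3%, beside 62.6%) and in csa-1;csb-1 514 of 581 (88.5%, beside 60%). An unadjusted p below 0.05 in the strain left out, in the chosen direction, was reached by 49.7%, 46.3%, 72.2% and 71.1% of these genes, beside 7.71%, 15.7%, 22.6% and 24.6% of all genes in either direction. After adjustment over all genes within that strain alone, 0, 15, 314 and 340 passed in the chosen direction and 9 in the opposite one, all 9 in csa-1;csb-1, and of all genes 0, 88, 1019 and 2617 passed. These fits used only the spread between that strain's own arrays, unlike the within-strain calls given before. Without the 4 libraries in doubt the chosen direction was seen in N2 for 487 of 553 genes (88.1%, beside 72.0% of all genes), in csa-1 for 548 of 737 (74.4%, beside 54.2%), in csb-1 for 520 of 541 (96.1%, beside 68.8%) and in csa-1;csb-1 for 437 of 460 (95%, beside 60.7%). The order of scanning, vehicle before NR, was the same in all 4 strains.

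**Figure D5:**
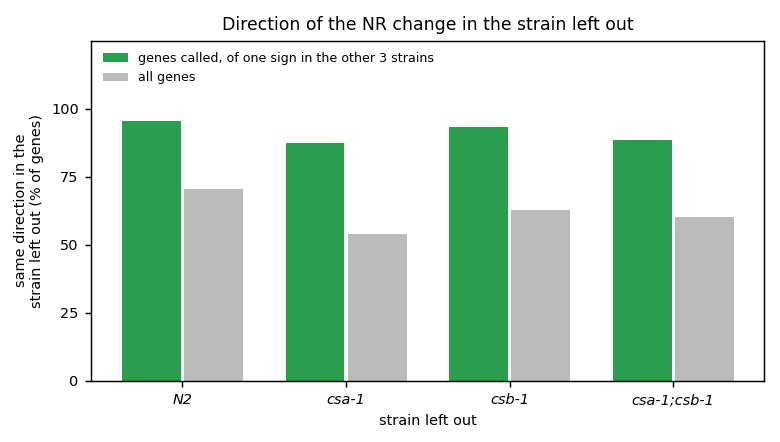
Share of genes (vertical axis, %) whose NR change in the strain left out (horizontal axis) had the direction of the other 3 strains, for genes called with the same direction in those 3 (green) and for all genes whatever their mean level (grey). Green bars stand between 87.4% and 95.6% and grey bars between 53.9% and 70.6%.

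Other probes of the same genes were read on the same arrays, so they are not independent samples. Of the 644 genes, 188 had another probe, 473 probes in all, and 444 of the 473 changed in the same direction. The adjusted p was passed by 366 in that direction and by 2 in the opposite one. A probe in the opposite direction was found for 16 of the genes. Genes not called with the mean of all probes included msrp-3, vit-6, gst-10, acox-1.3, far-7, cdh-5 and ttn-1. The other probes of msrp-3 all rose, by 1.17 to 1.46, and passed the adjusted p. Their mean levels ran from -2.47 to 0.11, and a call requires a level above 0. By position, 95 of 3243 genes of chromosome IV (2.93%) were shared up-regulated genes and 63 (1.94%) shared down-regulated ones, beside 1.75% and 1.21% of all genes with a known chromosome. On chromosome X these shares were 1.07% and 1.34%.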

How the data were processed

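The members and gene lists were chosen with earlier results of these data known, and genes in lists were named as the up to 3 called members with the largest change, beside the 14 leading genes in each direction, the NAD lists, the 4 genes with the smallest interaction p, and csa-1 and csb-1. Leading genes were ranked only among shared genes matched to the RefSeq gene table. Genes outside this rule (vit-1, vit-2, lys-1, lys-2, lys-7, F01D5.2, col-92 to col-94, phyh-1, ssp-37 and nspd-8) were named after their values were seen. The authors deposited 1-colour Agilent scanner tables, whose processed signal is an intensity after background subtraction, and a table of one score per spot, which matched the Z-score of the natural log of that intensity within 0.005 and whose medians per array lay between -0.34 and -0.05. The score table was used as an alternative. The study's methods speak of 3 biological replicates, and the labels give 4 arrays per group.

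From each array's 43803 gene spots the log2 intensity was taken and its Z-score put back into log2 units with a common factor of 3.743, the average SD over arrays. Probes with an outlier flag (289) were left out, and the brightest probe stood for a gene. Of 25497 genes, 19791 matched the RefSeq gene table. No spot was saturated, and the number of arrays limits the precision. limma 3.58.1 in R 4.3.3 was fitted with strain and NR as terms, with calls at an adjusted p up to 0.05, a Z-ratio (change over the SD of changes of all genes) past 1.5 in either direction, and a level that averaged above 0. The interaction was limma's F-test with 8 group means. Lists were given by counts and medians, with no test. An at-least fold used the lowest signal well above background on each array as floor. The fit was tested on simulated data. Alternatives were 75th percentile and quantile scaling, normexp (offset 50), the deposited scores, other probe rules, slide as block or unit, the replicate number as block, array weights, leaving out single arrays or strains, and, added after seeing the data, leaving out the 2 arrays with under 60% of spots well above background, leaving out the libraries whose csa-1 or csb-1 probe read against the label, and the share of spots above background as a covariate.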

Additional observations from a re-analysis of the deposited data

Results flagged for a closer look

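Over 13 genes and lists, each tested in 8 groups of 4 arrays, 1 array stood far from the other 3 in 7 cases, where chance flags about 1 in 20. sysm-1 read 1.83 on csb-1 NR replicate 4 (others 2.48 to 2.61), and the lysozyme mean was 1.54 there (others 1.74 to 1.76). ilys-2 read 0.05 on csa-1;csb-1 NR replicate 3 (others -0.96 to -0.80), and vit-6 read 7.55 on csa-1;csb-1 vehicle replicate 2 (others 8.19 to 8.21). On the library labelled N2 vehicle replicate 3, msd-4 read 0.81 (others 3.30 to 3.37) and the mean of the sperm genes was 1.76 (others 3.35 to 3.55). fmo-2 read 3.25 on the library labelled csa-1 NR replicate 4 (others 0.48 to 0.77).

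Of the named genes, 11 changed with NR by amounts that differed between strains (limma interaction, adjusted p). Among genes of the shared set these were clec-13 (0.012), F01D5.5 (0.032), F01D5.3 (0.018), dod-3 (0.011) and spp-20 (0.0055). Outside it they were Y57E12B.1 (1.43e-04), with a change of 2.32 in csa-1 and -0.59 in csa-1;csb-1, F19F10.3 (9.49e-04), with 1.07 in csa-1 and -0.87 in N2, hsp-16.21 (9.49e-04), a small heat shock protein with 2.71 in N2 and -0.39 in csa-1;csb-1, ZC21.10 (0.001), hsp-12.3 (0.0059) and hsp-16.41 (0.042).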

How the results depend on the processing

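All 644 shared genes kept their direction in every alternative except quantile normalization and normexp (642 each) and the mean of all probes (641). The 28 leading genes were called in 1461 of 1512 values, with none reversed. Leaving out single arrays gave 635 (without the library labelled csa-1 NR replicate 4) to 711 called genes and 587 to 675 shared ones. With the mean of each slide as the unit, 414 genes were called and all 414 had the same direction in each strain. With the adjusted p alone 3101 genes were called and 2696 had the same direction in all 4 strains. Of the 682 called genes 56.2% were up-regulated, beside 44.5% of 905 with normexp and 45.8% with array weights. 75th percentile scaling moved the median change of all genes to -0.11. Calls within strains under normexp numbered 1360 in csa-1, 801 in csb-1 and 1112 in csa-1;csb-1. rps-14 turned to 0.092 with quantile normalization and 0.11 with normexp.

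Genes that differed between strains numbered 466, and 1268, 1245, 2086 and 6415 with 75th percentile scaling, quantile normalization, normexp and array weights. Leaving out single arrays gave 213 to 1271: 1271 without the library labelled N2 vehicle replicate 3, 779 without N2 vehicle replicate 1, 255 without the library labelled csa-1 vehicle replicate 4, 294 without csb-1 NR replicate 3, 282, 240 and 298 without csa-1;csb-1 vehicle replicates 1, 2 and 4, and 213, 269, 287 and 280 without csa-1;csb-1 NR replicates 1 to 4. Without the libraries labelled N2 vehicle replicate 3 and csa-1 NR replicate 4 the number was 1226, and 1151 without the 4 in doubt. The cause was not tested.

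Same-numbered arrays did not deviate together (mean r = 0.0098 over 16 pairs, from -0.28 to 0.26). With a replicate block, 674 genes were called, 639 of them shared. Without the 2 arrays with the lowest share of spots above background 690 genes were called. Scan date could not be fitted, since all arrays were scanned on 1 day, nor could slide as a block in the interaction, since each group had its own slide. The interaction already rested on the adjusted p alone.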

Other observations

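Names that begin with MTCE, given by the array design to genes of the mitochondrial genome, were looked at after their values had been seen. All 14 had a negative NR change, from -0.88 to -0.15, with a median of -0.54, and 5 were called down-regulated. Their median change was -0.20 in N2, -0.50 in csa-1, -0.45 in csb-1 and -1.13 in csa-1;csb-1. They are bright, with mean levels from 6.46 to 10.7, and with 75th percentile scaling, quantile normalization and normexp their median was -0.32, -0.22 and -0.22 and 0, 1 and 3 were called.

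Transthyretin-related genes, a family of small secreted proteins, held 6 called down-regulated of 58 and none called up-regulated. ttr-18 fell by 0.80, and ttr-34 and ttr-2 by 0.65 each. Of 279 nuclear hormone receptors 1 was called, nhr-21, which rose by 0.68. Runs of 3 neighbouring genes called in the same direction were found at nspd-3, C24D10.2 and nspd-6 on chromosome IV (up-regulated) and at C45B2.2, spig-20 and C45B2.8 on chromosome X (down-regulated).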
